A study of Mus musculus with 2 samples.

Results

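The mucins Muc1, Muc4, Muc13, Muc15, Muc16 and Muc20 and the sialomucins Cd164, Podxl and Emcn were described on 2 expression arrays of mouse uterine epithelial cells. Every probe set that the platform annotation gives to exactly 1 of these genes was taken, which made 15 probe sets for 9 genes, out of 34945 probe sets naming a single gene and 45037 non-control probe sets in all. Cells came from C57BL/6 mice on day 4 of pregnancy, counted from the vaginal plug after mating to fertile males. For both genotypes the labels give 1% trypsin for 90 min. The control group was Msx1Msx2 floxed and the other group Msx1Msx2-null, made by crossing the floxed alleles of both homeobox genes to PRcre. PRcre expresses Cre recombinase where the progesterone receptor is made, which in the uterus includes stroma and muscle as well as epithelium. The labels do not say whether controls carried Cre, how old the mice were, or whether RNA of several mice was pooled. They give 5 mice per genotype in the treatment text and 4 in the extraction text, and the latter names stromal cells where all other fields name epithelial cells. Each genotype has 1 array, so no difference below has a replicate check or a p-value. The number of arrays limits the precision.

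Membrane mucins are long, heavily O-glycosylated proteins that stand on the apical surface of epithelia, lubricate it and keep cells and microbes at a distance. On the luminal epithelium of the uterus they form part of the glycocalyx that an embryo meets first, and Muc1 is known in the mouse as a surface component that is removed or reduced as the uterus becomes receptive. Sialomucins such as podocalyxin, endomucin and CD164 carry the same kind of dense, sialylated O-glycans on smaller proteins, and several of them are best known from endothelium or blood cells.

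The 250 bases upstream of the annotated start are shown for 3 members: Muc1, Emcn and Muc16. Muc1 is the luminal mucin with the best known role at implantation. Emcn and Muc16 differed most upwards and downwards by the brightest probe set of each gene. The sequences are from RefSeq on GRCm38.p6 and run 5′ to 3′ on the gene's own strand. They lie at chr3:89228806-89229055 (Muc1, plus strand), chr3:137340828-137341077 (Emcn, plus strand) and chr9:18674604-18674853 (Muc16, minus strand). Capitals mark the TATA box motif TATAAA and the GC box motif GGGCGG.
Muc1: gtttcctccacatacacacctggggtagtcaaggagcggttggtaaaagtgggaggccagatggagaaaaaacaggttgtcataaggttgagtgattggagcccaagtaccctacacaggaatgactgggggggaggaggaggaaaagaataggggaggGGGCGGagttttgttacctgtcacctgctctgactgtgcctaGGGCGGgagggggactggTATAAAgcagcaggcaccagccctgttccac
Emcn: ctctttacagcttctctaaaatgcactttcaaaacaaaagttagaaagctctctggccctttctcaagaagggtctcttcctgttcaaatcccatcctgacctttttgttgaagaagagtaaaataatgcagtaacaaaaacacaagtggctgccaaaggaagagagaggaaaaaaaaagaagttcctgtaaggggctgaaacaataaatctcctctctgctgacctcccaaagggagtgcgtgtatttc
Muc16: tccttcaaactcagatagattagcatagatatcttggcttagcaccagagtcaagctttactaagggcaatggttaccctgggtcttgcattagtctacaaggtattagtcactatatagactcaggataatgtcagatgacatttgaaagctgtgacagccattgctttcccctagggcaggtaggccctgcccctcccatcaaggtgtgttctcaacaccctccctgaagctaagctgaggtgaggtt

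The Muc1 window holds 2 GC boxes, whose first bases lie 91 and 49 bases before the start, and a TATA box that begins 31 bases before it. Neither motif occurs on either strand of the Emcn and Muc16 windows. Bases G and C made up 54.8% of the Muc1 window, 40.8% of that of Emcn and 46.4% of that of Muc16. Of all 9 genes 7 had a window in the table, Muc13 with 2 starts. Searched on both strands, TATAAA occurred in the windows of 2 of these genes (Muc1 and Muc4) and in 12.4% of all 32851 windows of this length, and GGGCGG in those of 2 genes (Muc1 and Cd164) and in 32.7% of all windows. The core sequence that Msx proteins are known to bind, TAATTG, was in none of the 8 member windows and in 7.17% of all windows. These are matches of letters in short windows and were not tested as binding sites.

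Signals are MAS5 intensities on a linear scale. A probe set was taken as measured on an array where its signal reached 21.1, the 50th percentile of all non-control signals, and lower signals were set to this floor before a difference was taken. The share of non-control probe sets at or above it was 50.4% for the control and 49.6% for the null array. Of the targeted genes, Msx1 read 3474 on the control and 42.3 on the null array (the brighter of its probe sets), and Msx2 63.4 and 23.6. The deleted exons are not named in the labels. Epithelial markers were bright on both arrays: 9 of 10 were measured, with a median log2 difference of -0.06. Markers of stroma (8 of 8), mesothelium (6 of 6) and endothelium (11 of 14) were measured too, so cell types other than epithelium were read on both arrays. Of 6 smooth muscle markers 5 were brighter by 2-fold or more on the null array (median 1.44), beside 7.73% of all measured genes. The values of Myh11, Cnn1 and Actg2 were bounds, with the control signal below the floor, and Des stood at -0.40. With spike-ins set equal 3 of 6 reached 2-fold, and with the 67th percentile floor 2 of the 3 measured. Of 6 gland markers 4 were measured (median 1.13, or 0.23 with the 67th percentile floor). Cxcl15 was 4.61-fold and Foxa2 2.40-fold higher. Prss29, below the floor on the control array, was at least 1.999-fold higher, and Spink1 was at least 6.69-fold lower. The summed signal of the gland markers was 233 on the control and 315 on the null array, none was at 0, and their part in the values of the mucins was not tested. As the cells are a bulk preparation, fewer cells of a type and less RNA per cell cannot be told apart. The spread between probe sets of the same gene, the only gauge of measurement error here, was 0.38 (SD of log2 differences, 4645 genes), and holds no spread between animals.

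Most of the measured mucins and sialomucins were slightly brighter on the null array, and Muc16 was dimmer. Of 9 genes, 7 were measured on at least 1 array and 2, Muc13 and Muc15, on neither. By the brightest probe set of each gene, 6 of the 7 were higher in the null and 1 was lower, with a median log2 difference of 0.46 beside 0.08 for all 11662 measured genes. At least 2-fold differences were found for 1 gene higher (Emcn) and 1 gene lower (Muc16), where 7.73% of all measured genes were at least 2-fold higher and 4.75% at least 2-fold lower. Among the 9 measured probe sets 2 were at least 2-fold higher and 1 was at least 2-fold lower, against 6.25% and 6.49% of all 20942 measured probe sets. These values lay close to the threshold: the probe sets past it were between 2.04-fold and 2.14-fold, and the nearest below it was 1.76-fold. With a pseudocount of 16 in place of the floor, or with the floor at the 67th percentile, no member reached 2-fold in either direction.

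**Figure D1:**
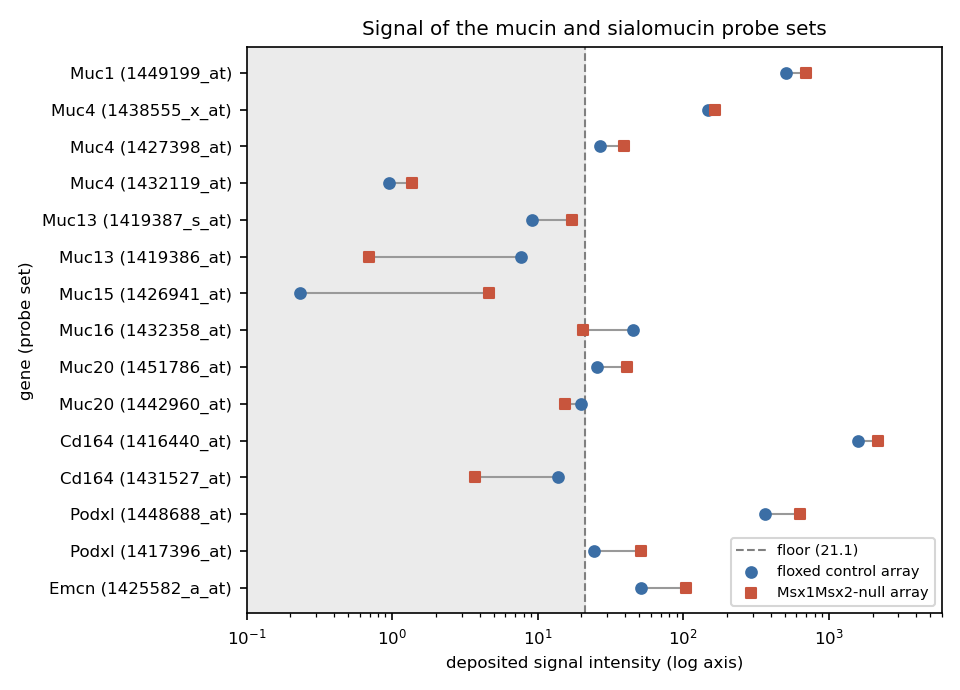
Deposited signal (log axis) of the 15 probe sets on the floxed control array (circles) and the Msx1Msx2-null array (squares); the shaded range lies below the floor of 21.1. 6 probe sets lie below the floor on both arrays, and Muc16 crosses it downwards, from 45.2 to 20.6.

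Muc1, a membrane mucin of the luminal and glandular surface that responds to ovarian steroids, has 1 probe set, which read 507 on the control and 698 on the null array. The null array was 1.38-fold brighter, a log2 difference of 0.46. That is 1.21 times the SD between probe sets of a gene. It fell short of 2-fold in all settings tried, which ranged from 0.14 to 0.53.

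Muc4 is a very large membrane mucin that can bind the receptor ErbB2. Its brightest probe set, whose suffix marks probes that can bind transcripts of other genes, read 147 on the control and 165 on the null array (log2 0.17). The next one, without that suffix, read 26.7 and 38.9 (log2 0.54). The last lay far below the floor on both arrays, at 0.958 and 1.37. The 2 measured probe sets were therefore both higher in the null, by unequal amounts. With the arrays set to their spike-in controls, the first turned to -0.15 while the other stayed above 0, at 0.23.

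Muc16, a giant membrane mucin of ocular, airway, reproductive tract and mesothelial surfaces known in people as the source of CA125, was the member that was lower in the null. Its single probe set read 45.2 on the control and 20.6 on the null array. The null signal lay just below the floor, so the gene was at least 2.14-fold lower (log2 bound -1.10). By the brightest probe set all 6 markers of mesothelium were lower there as well, with a median of -0.60. Their summed signal was 1527 on the control and 1054 on the null array, and none was at 0. Of these markers 0 reached 2-fold, where 4.75% of all measured genes were at least 2-fold lower. With spike-ins set equal 2 did. Upk1b, at -0.35, lay within the SD between probe sets, and 1 of its dimmer probe sets stood at 0.23. Msln, which encodes the binding partner of Muc16 on mesothelium, read 140 and 90.7 (log2 -0.62), and Wt1, a transcription factor of mesothelium, 69.5 and 42.2 (-0.72). The part of mesothelial RNA in the Muc16 value was not tested. With the pseudocount Muc16 stood at -0.74, short of 2-fold, and with the 67th percentile floor, 72.7, it was below the floor on both arrays.

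Muc20, a small membrane mucin that can bind the receptor Met, had 1 measured probe set, at 25.6 on the control and 41.3 on the null array. It was 1.61-fold higher (log2 0.69) from a control signal close to the floor. Its second probe set, at 19.8 and 15.5, lay below the floor on both arrays and was not compared.

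Muc13 and Muc15 were not measured with the floor of 21.1. With the 33rd percentile floor, 8.62, Muc13 was measured and higher in the null. Muc13, a membrane mucin of gut and airway, had probe sets at 9.15 and 17.2 and at 7.68 and 0.693 in the control and null. Muc15 had 1 probe set, at 0.231 and 4.66. Values below the floor were given no order, and no fold was taken.

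Cd164, a sialomucin of endosomes and the cell surface that takes part in the adhesion of blood progenitors, read 1590 on the control and 2176 on the null array. It was 1.37-fold higher in the null (log2 0.45), 1.19 times the SD between probe sets. Its other probe set read 13.8 and 3.68, below the floor on both arrays.

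Podxl encodes podocalyxin, an anti-adhesive sialomucin of podocytes, endothelium and the apical membrane of many epithelia. Its brighter probe set read 363 on the control and 638 on the null array, and its dimmer one 24.3 and 50.9. Both were higher in the null, by 1.76-fold and 2.10-fold (log2 0.81 and 1.07), and they differed from each other by less than the SD between probe sets. With the arrays set to their spike-in controls the values were 0.50 and 0.75.

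Emcn encodes endomucin, a sialomucin of venous and capillary endothelium. Its single probe set read 51.4 on the control and 105 on the null array, 2.04-fold higher (log2 1.03). Its suffix marks probes shared by several transcripts of the gene. Without probe sets of that kind Emcn has no value. Of the 14 endothelial markers 11 were measured and none reached 2-fold, where 7.73% of all measured genes were at least 2-fold higher and 4.75% lower. Of these markers 10 were higher in the null and 1 was lower. With spike-ins set equal 5 were higher and 6 lower. With the 33rd percentile floor Tie1, an endothelial receptor, stood at 1.09. Their median log2 difference was 0.21 and their summed signal 701 on the control and 933 on the null array. None was at 0, but Flt1, Erg and Robo4 were below the floor on both arrays. The markers spread widely: Kdr, a VEGF receptor, stood at 0.86 and Eng, a TGF-beta co-receptor, at 0.82, whereas the adhesion molecules Cdh5 and Pecam1 stood at 0.02 and 0.21. The part of endothelial RNA in the Emcn and Podxl values was not tested. Emcn stood at 0.84 with the pseudocount, 0.71 with the spike-in scaling and 0.53, as a bound, with the 67th percentile floor, each short of 2-fold.

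**Figure D2:**
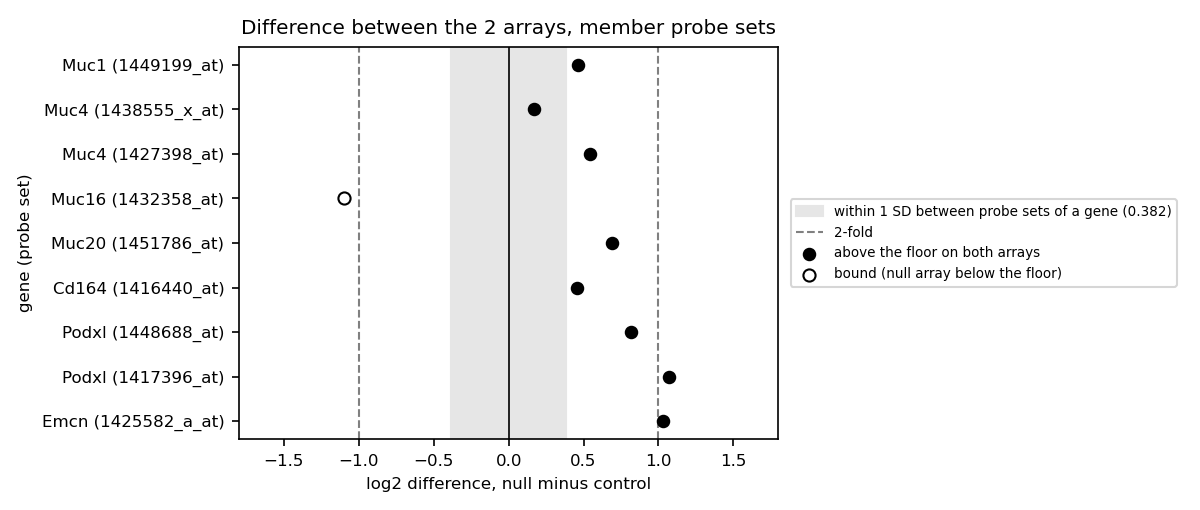
Log2 difference, null minus control, of the 9 probe sets measured on at least 1 array; the grey band is 1 SD between probe sets of a gene (0.38), dashed lines mark 2-fold, and the open circle is a bound. Muc16 lies at -1.10 and all others lie between 0.17 and 1.07; the lowest of these, for Muc4, turns to -0.15 with spike-in scaling.

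The deposited scaling fixes where 0 lies. With array medians, quantile normalization or loess, 6 member genes stayed higher and 1 lower. With spike-ins set equal, Muc4 joined Muc16 below 0, as every log2 difference above the floor moves down by the same amount, and the median of all genes moved from 0.08 to -0.22. Given relative to the median of all genes in the deposited scaling, Emcn stood at 0.95, Podxl at 0.73, Muc20 at 0.60, Muc1 at 0.38, Cd164 at 0.37, Muc4 at 0.09 and Muc16 at -1.18.

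**Figure D3:**
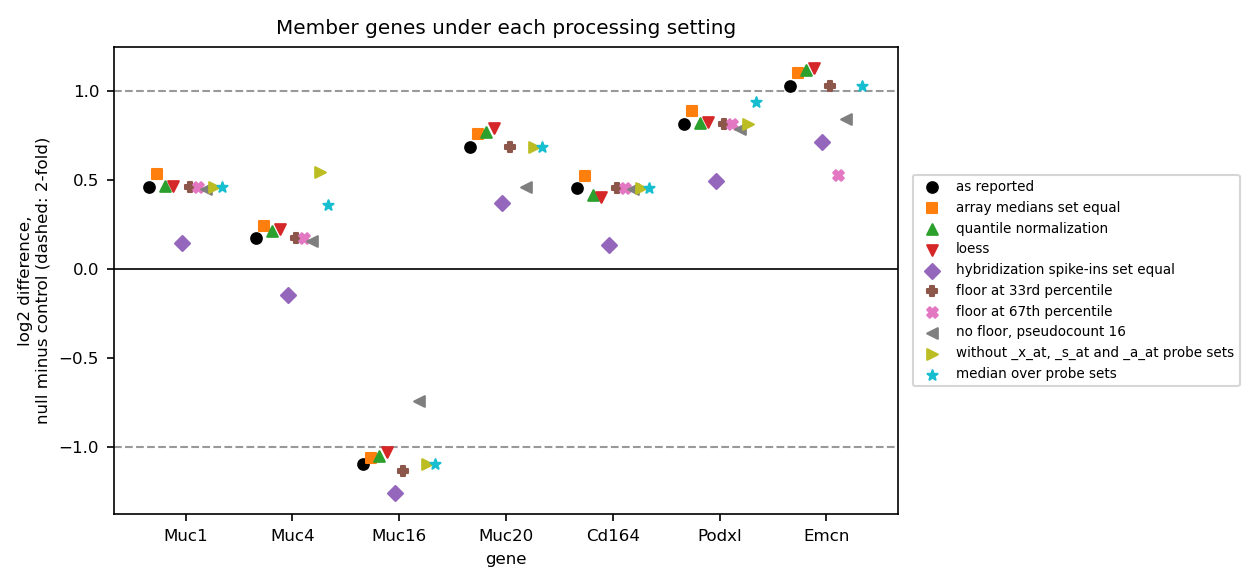
Log2 difference, null minus control, of the 7 measured member genes (brightest probe set, or the median over probe sets where stated) under each processing setting; dashed lines mark 2-fold. Every value of Muc16 lies below 0 and every value of the other genes above 0 except Muc4 with spike-ins set equal; Muc16 and Muc20 have no value with the 67th percentile floor, and Emcn none without suffixed probe sets.

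Related genes came from lists chosen for their function. Of 12 other mucin genes 6 had a probe set and 1 was measured. The secreted gel-forming mucins Muc2, Muc5ac and Muc5b were below the floor on both arrays, as were Muc3 and Mucl1. Ovgp1, the oviduct mucin-like glycoprotein, read 3366 on the control and 6242 on the null array, 1.85-fold higher (log2 0.89). Its only probe set carries a suffix, so it has no value where suffixed probe sets are left out. Among 11 genes of mucous secretory cells 5 were measured and 1 was at least 2-fold higher, beside 7.73% of all measured genes. That was Clca1, a secreted protein of mucus, from 47.9 to 435 (9.10-fold, log2 3.19, or 2.58 with the 67th percentile floor). Fcgbp, a mucus protein that binds IgG, stood at 0.71 and Creb3l1, a transcription factor of secretory cells, at 0.22. The trefoil factor Tff1 was at 0.05, and Tff2, Tff3 and Spdef were below the floor on both arrays. Tff1, Tff2, Tff3 and Spdef were named after their values were seen, outside the rule for naming genes, as were the mucins below the floor.

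Of 10 further sialomucins 7 were measured (median 0.35). By the brightest probe set 3 were at least 2-fold higher and none was at least 2-fold lower, beside 7.73% and 4.75% of all measured genes. With spike-ins set equal 1 of these sialomucins was at least 2-fold higher and 1 at least 2-fold lower. Parm1, a mucin-like androgen-regulated protein, read 55.9 on the control and 200 on the null array, 3.57-fold higher (log2 1.84), and its second probe set stood at 1.81. Selplg, the P-selectin ligand of leukocytes, was 2.36-fold higher (25.4 to 59.9), from a control signal close to the floor. With the 67th percentile floor, 72.7, Selplg was below the floor on both arrays. Cd34, a close relative of podocalyxin found on endothelium and progenitor cells, was 2.03-fold higher (96.5 to 196, log2 1.02), a value near that of Emcn. With the spike-in scaling Cd34 stood at 0.70 and Selplg at 0.92, and with the pseudocount at 0.91 and 0.88, short of 2-fold. Tmem123, chosen after its values were seen, was lower in the null at both its probe sets, by unequal amounts (-0.77 and, at the dimmer one, -1.52). Leukocyte markers had a median of 0.41 on the same arrays and stromal markers 0.59, or 0.09 and 0.27 with spike-ins set equal. The part of leukocyte and stromal RNA in the sialomucin values was not tested.

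The enzymes that build O-glycans on mucins differed in both directions. Of 33 genes 25 were measured, 2 were at least 2-fold higher and 4 at least 2-fold lower, with a median of -0.16. Over all measured genes 7.73% were at least 2-fold higher, close to the share of these enzymes, and 4.75% lower. By the median over probe sets 2 enzymes were lower in place of 4. Galnt2, which adds the first sugar to serine or threonine, was 2.65-fold higher (240 to 637), with its 3 probe sets between 1.07 and 1.41. Galnt7 and Galnt18 of the same family were lower by 1.15 and 1.02 on the log2 scale, though the further probe sets of Galnt7 gave -0.71 and -0.19. C1galt1, which makes the core 1 glycan on most mucins, was 2.26-fold lower (413 to 183), whereas C1galt1c1, the chaperone it needs for folding, was 2.12-fold higher (605 to 1281). Gcnt1, which branches core 1 into core 2, was 2.89-fold lower (1530 to 529), and its second probe set stood at -1.48. C1galt1 was lower at all 3 of its probe sets (-1.17, -0.91 and -0.80). By the median over probe sets Galnt7 stood at -0.71 and C1galt1 at -0.91. C1galt1c1 fell short of 2-fold with spike-ins set equal (0.77). Galnt18 did so with array medians set equal (-0.95), loess (-0.98) and the pseudocount (-0.95), and lay at the threshold with quantile normalization.

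Genes for proteins that bind membrane mucins or release them were read as well. Of 13 partner genes all were measured, 1 was at least 2-fold higher and 0 were at least 2-fold lower (median -0.09). Over all measured genes 7.73% were at least 2-fold higher, close to the share of these partners, and 4.75% lower. With spike-ins set equal 2 were at least 2-fold lower, Egfr (-1.18) and Slc9a3r2 (-1.16). Pdzk1, a PDZ scaffold of apical membranes, went from 19.4, below the floor, to 142, at least 6.72-fold higher. With the 67th percentile floor its bound was 0.96. Its only probe set carries a suffix, so Pdzk1 has no value without suffixed probe sets. The receptor Egfr stood at -0.86, but its other measured probe sets gave -0.28, -0.13 and a bound of -0.17, and their median with the first was -0.23. Slc9a3r2, a scaffold that links podocalyxin to ezrin, stood at -0.85, with its other 5 probe sets between -0.97 and 0.30 and a median over all of -0.55. Slc9a3r1 of the same family, named after its values were seen, went the other way. It read 1027 on the control and 1699 on the null array (0.73), and its dimmer probe sets stood at 0.98 and 0.60. Of the 7 genes of mucin shedding none reached 2-fold (median 0.04), beside the same shares of all measured genes. So short a list cannot tell a count of 0 from these shares. Rhbdf2, which is needed for maturation of the sheddase ADAM17, stood at -0.56 and Rhbdf1 at 0.39. The membrane metalloproteinase Mmp14 had no single direction: its brightest probe set stood at -0.45 and the other 2 at 0.47 and 0.14.

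**Figure D4:**
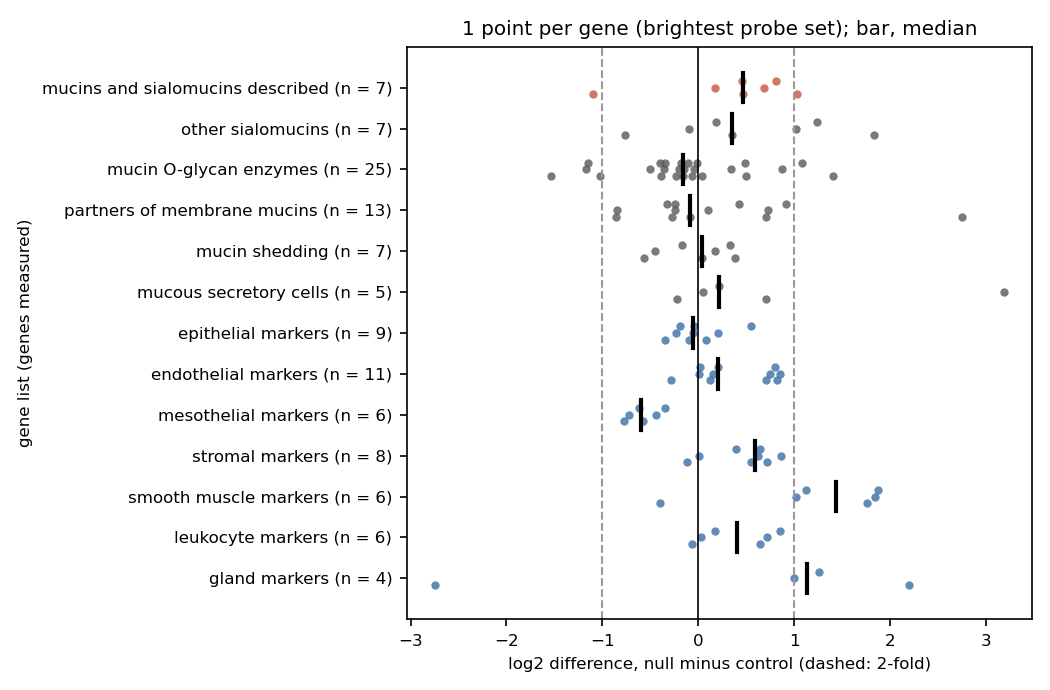
Log2 difference, null minus control, of each gene measured on at least 1 array (1 point per gene, brightest probe set, bounds included) by list; black bars are medians and dashed lines mark 2-fold. The members have a median of 0.46, mesothelial markers lie wholly below 0 (median -0.60) and smooth muscle markers have a median of 1.44; with spike-ins set equal the endothelial median turns from 0.21 to -0.11, that of mucous secretory cells from 0.22 to -0.10, and that of mucin shedding from 0.04 to -0.27, while with the 67th percentile floor, which leaves 2 genes of mucous secretory cells, their median is 1.65.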

How the data were processed

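The authors' deposited intensities are linear MAS5 signals; the submitters' processing notes name Affymetrix Expression Console, version 1. RNA (100 ng) was amplified with a 3' kit, per the labels' protocols. Both arrays had a 2% trimmed mean of 150.001, so a difference in total RNA per cell is not visible. Deposited intensities were taken to log2 after a floor (50th percentile), and differences are null minus control. Genes took their brightest probe set. Detection calls were not used. Names came from the platform annotation, and 10092 non-control probe sets without a single gene stayed unnamed. The ratio of 3' to 5' signal was 1.62 (control) and 1.56 (null) for Actb. All 9 members matched RefSeq by symbol.

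Members and lists (6 of function, 7 of markers) were chosen with earlier results of these data known. All members were named, with genes at least 2-fold apart in each list of function and up to 3 per list by size. The gland and smooth muscle markers given by name lie outside this rule. Alternatives were 4 other scalings (one a loess of span 0.3), floors at the 33rd and 67th percentile, a pseudocount of 16, the median over probe sets, omission of suffixed probe sets, members above the floor on both arrays, and thresholds of 1.5-fold and 3-fold. Functions were tested on simulated data. Python 3.11.15, pandas 2.3.3 and statsmodels 0.14.6 were used.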

Additional observations from a re-analysis of the deposited data

How the results depend on the processing

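Of 60 values of member genes under other settings, 59 moved by less than the SD between probe sets and 1, Emcn with the 67th percentile floor (0.53), by more. Many of these could not move. Another floor leaves genes above it unchanged, and the median over probe sets does so for genes with a single measured probe set. Muc16 and Muc20 with the 67th percentile floor and Emcn without suffixed probe sets had no value and are not among the 60. No paired analysis was possible because each genotype has 1 array. The counts past 2-fold were less stable, as the values lie near the threshold. With spike-ins set equal, 0 member probe sets and 0 member genes were at least 2-fold higher, in place of 2 and 1. With the 67th percentile floor, with the pseudocount and at a threshold of 3-fold, all 4 counts (probe sets and genes, higher and lower) were 0. Without suffixed probe sets 1 probe set and 0 genes were higher, and at 1.5-fold 4 probe sets and 3 genes. The median of the member genes ran from 0.14 (spike-ins) to 0.57 (33rd percentile floor), and the SD between probe sets was 0.47 and 0.31 with the lower and higher floor. The genes behind this median were not the same in every setting. The 33rd percentile floor took in Muc13, which made 8 genes, 7 higher and 1 lower. The 67th left 5, and the pseudocount used all 9. Signals close to the floor limit Muc16, Muc20 and the dimmer probe sets of Muc4 and Podxl.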
